A study of Mus musculus with 8 samples.

Results

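The genes of the cytosolic ribosomal proteins were examined in RNA-seq data from mouse dorsal root ganglia, which hold the cell bodies of the neurons that sense touch, temperature and pain. They were chosen by symbol alone, as Rpl or Rps followed by a number and an accepted ending, together with Rplp0, Rplp1, Rplp2 and Rpsa, while symbols marked as pseudogenes were left out. This gave 85 of the 25780 genes in the count files. They comprise 43 genes of the large subunit, 3 genes of its stalk, 30 genes of the small subunit and 9 paralogs or copies (Rpl3l, Rpl6l, Rpl7l1, Rpl22l1, Rpl32l, Rpl36al, Rps4l, Rps12l1 and Rps27l). RefSeq lists 82 of the 85 as protein coding, Rps4l as a transcribed pseudogene, and Rpl6l and Rps12l1 as pseudogenes. A few core proteins, such as Fau, Rps3a1 and Rack1, carry other names and are given separately.

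The iKO mice were Avil-iCreERT2 with flox/flox alleles of Ehmt2, the gene of the histone methyltransferase G9a, so that Cre under Avil control could be switched on by induction. The WT mice were littermates that lacked Cre, and their Ehmt2 alleles are not described in the labels. The 4 groups were iKO with CFA, iKO with vehicle, WT with CFA and WT with vehicle, each with 2 libraries, where CFA is complete Freund's adjuvant, an inflammatory agent given into the left paw 14 days before collection. Age, sex and the ganglia taken are not given, nor whether each library is a separate animal, so a p-value reflects only how these libraries vary, which may be technical. A Cre driven by Avil acts in sensory neurons, whereas the RNA came from whole ganglia that also hold glia, immune cells and vessels.

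Each ribosome joins a small subunit, which reads the mRNA, to a large subunit, which forms the peptide bonds, and nearly every protein of both is needed in equal number. Their mRNAs begin with a stretch of pyrimidines, the 5′ terminal oligopyrimidine (TOP), through which mTORC1 signalling controls their translation together. In sensory neurons, ribosomal protein mRNAs are also transported into axons, and glia and immune cells of the ganglion hold them too.

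The start regions of some of the genes on which the results turn differ in their runs of C and T in the reference. A run near the annotated start need not be the TOP itself, because the bases searched include some before the start. In the RefSeq table of gene starts (GRCm38.p6), 62 of the 85 genes had an entry, and 26 of these 62 (41.9%) held an unbroken run of C and T of at least 8 bases within the 30 bases around the annotated start, against 11.9% of all 27025 genes in the table. The 30 bases are the 15 before and the 15 from the start, 5′ to 3′ on the gene's own strand, and capitals mark the longest run of C and T. Rpl35, Rps6, Rpl15 and Rps18 are shown as genes with a long run, and Rps27l, Rps2, Rps28 and Rps13 because they changed in the comparisons below.
Rpl35 (chr2:39005117-39005146, minus strand): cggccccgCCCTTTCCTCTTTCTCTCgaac
Rps6 (chr4:86857353-86857382, minus strand): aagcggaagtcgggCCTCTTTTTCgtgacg
Rpl15 (chr14:18270972-18271001, minus strand): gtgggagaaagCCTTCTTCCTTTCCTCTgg
Rps18 (chr17:33955651-33955680, minus strand): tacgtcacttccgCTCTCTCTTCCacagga
Rps27l (chr9:66946071-66946100, plus strand): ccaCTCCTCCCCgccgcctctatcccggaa
Rps2 (chr17:24720048-24720077, plus strand): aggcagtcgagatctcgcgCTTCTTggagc
Rps28 (chr17:33824548-33824577, minus strand): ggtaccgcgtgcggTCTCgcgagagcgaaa
Rps13 (chr7:116334176-116334205, minus strand): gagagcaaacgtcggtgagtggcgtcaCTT
The run spans 18 bases in Rpl35 and 17 in Rpl15, but 4 in Rps28 and 3 in Rps13 around the annotated starts. In Rps27l the run begins 12 bases before the start, and in Rps2 at base 5 from the start. The motif CCGGAAG, which ETS family factors bind, was found on either strand in the 300 bases around the start of 23 of the 62 genes (37.1%) and of 9.1% of all genes in the table. The letters CTTTCC, searched on the gene's strand of the 30 bases, were present in 12.9% of the 62 and in 1.4% of all.

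The libraries held 26312614 to 42971823 reads, of which 1.20% to 2.46% were assigned to the 85 genes. Ehmt2, the targeted gene, was at 44.95 and 44.2 CPM (reads scaled for depth and library composition) in iKO CFA, 34.0 and 31.6 in iKO vehicle, 74.2 and 61.3 in WT CFA and 74.4 and 65.4 in WT vehicle, so every iKO library lay below every WT library. Of the 85 genes, 84 passed a filter on low counts, which Rps12l1 missed. Sensory neuron markers were present in every library, with 0 of 11 at 0 reads. The WT vehicle libraries stood apart from the other 6: 9 nuclear noncoding RNAs summed to 218 to 346 CPM in those 6 and to 4424 and 4484 CPM in WT vehicle, and 8 skeletal muscle genes to 1.36 to 6.97 CPM in 7 libraries and to 424 CPM in WT vehicle library 1. Because whole ganglia were sequenced, fewer cells of a type and less RNA per cell cannot be told apart in any value below.

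The summed level of the ribosomal protein genes was high in both iKO CFA libraries and in WT CFA library 2, and low in both iKO vehicle libraries and in WT CFA library 1. The sum was 23710 and 23170 CPM in iKO CFA, 12640 and 12570 CPM in iKO vehicle, 13920 and 27120 CPM in WT CFA, and 18950 and 15160 CPM in WT vehicle. The WT CFA libraries thus lay 1 at each level, with the WT vehicle libraries between. As a share of all reads the genes took 2.39% ± 0.019 in iKO CFA, 1.21% ± 0.008 in iKO vehicle, 1.86% ± 0.856 in WT CFA and 1.93% ± 0.311 in WT vehicle (SD, n = 2 each).

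Most genes followed the sum. Relative to its own mean over the 8 libraries, the median gene stood at 0.39 and 0.32 (log2) in iKO CFA, at -0.44 and -0.48 in iKO vehicle, at -0.34 and 0.55 in WT CFA, and at 0.17 and -0.14 in WT vehicle. In WT CFA library 2, 83 of the 84 genes were above library 1, by a median of 0.93 (log2), whereas the median of all 20235 genes tested was -0.03. Rps4l was the exception. In WT vehicle, 79 of 84 genes were lower in library 2 than in library 1, with a median difference of -0.31. The 2 libraries of each iKO group differed by medians of -0.04 in iKO CFA and -0.02 in iKO vehicle.

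**Figure D1:**
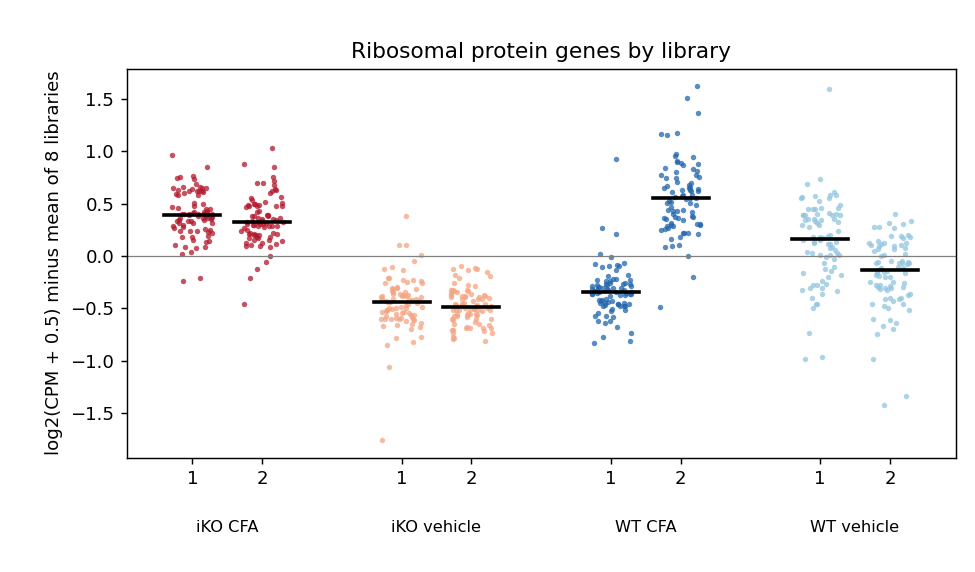
Level of each of the 84 tested ribosomal protein genes in each library, as log2(CPM + 0.5) minus that gene's mean over the 8 libraries; points are genes and black bars are medians. Both iKO CFA libraries and WT CFA library 2 sit above 0, both iKO vehicle libraries and WT CFA library 1 sit below it, and the WT vehicle libraries lie between.

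WT CFA library 1 lay nearer to the iKO vehicle mean than to the iKO CFA mean for 79 of 84 genes, and WT CFA library 2 nearer to the iKO CFA mean for 82 of 84. Their medians were 0.10 above the iKO vehicle mean for library 1 and 0.17 above the iKO CFA mean for library 2 (log2). Every WT CFA value below is therefore given per library. The large to small subunit ratio of reads moved little by comparison, from 1.81 in iKO vehicle library 1 to 1.56 in WT CFA library 2.

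Markers of several cell types, listed with earlier results known, differed between the libraries with a high and a low ribosomal sum, while the WT vehicle libraries did not follow one order. The 11 sensory neuron markers summed to 14660 and 14320 CPM in iKO CFA, 22650 and 23090 CPM in iKO vehicle, 23220 and 15740 CPM in WT CFA, and 11150 and 14450 CPM in WT vehicle. The 7 myelinating Schwann cell markers summed to 16070 and 14820 CPM in iKO CFA, 6162 and 7005 CPM in iKO vehicle, 7321 and 17830 CPM in WT CFA, and 11040 and 6387 CPM in WT vehicle. Outside WT vehicle, the neuronal sum was thus lower and the Schwann cell sum higher in the 3 libraries with a high ribosomal sum than in the 3 with a low one. The sums of the satellite glia and of the erythroid markers were also higher in those 3 libraries outside WT vehicle. The 6 satellite glia markers were at 7124 and 7450 CPM in iKO CFA, 4527 and 4796 CPM in iKO vehicle, 4929 and 9431 CPM in WT CFA, and 4866 and 4059 CPM in WT vehicle. Most of that sum was Apoe, at 5222 and 5431 CPM in iKO CFA. Glul and Kcnj10 did not split this way, Glul being at 434 and 457 CPM in iKO CFA and 431 and 437 CPM in iKO vehicle. The 5 erythroid markers summed to 1622 and 1503 CPM in iKO CFA, 405 and 327 CPM in iKO vehicle, 174 and 1486 CPM in WT CFA, and 324 and 138 CPM in WT vehicle. Granulocyte and macrophage markers departed from the sum in part, the first being far higher in iKO CFA than in WT CFA library 2 and the second highest in WT vehicle. The 6 granulocyte markers reached 1413 and 1412 CPM in iKO CFA, against 92.2 and 62.8 CPM in iKO vehicle, and stood at 26.0 and 240 CPM in WT CFA and 43.6 and 22.1 CPM in WT vehicle. The 8 macrophage markers lay at 256 and 272 CPM in iKO CFA, 106 and 85.9 CPM in iKO vehicle, 112 and 318 CPM in WT CFA, and 434 and 340 CPM in WT vehicle. Mitochondrial transcripts took 6.08% and 5.95% of reads in iKO CFA, 1.34% and 1.86% in iKO vehicle, 3.94% and 12.1% in WT CFA, and 3.57% and 2.76% in WT vehicle. None of these neuronal, glial, erythroid, granulocyte or macrophage markers was at 0 in any library, and their part in the ribosomal differences was not tested.

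**Figure D2:**
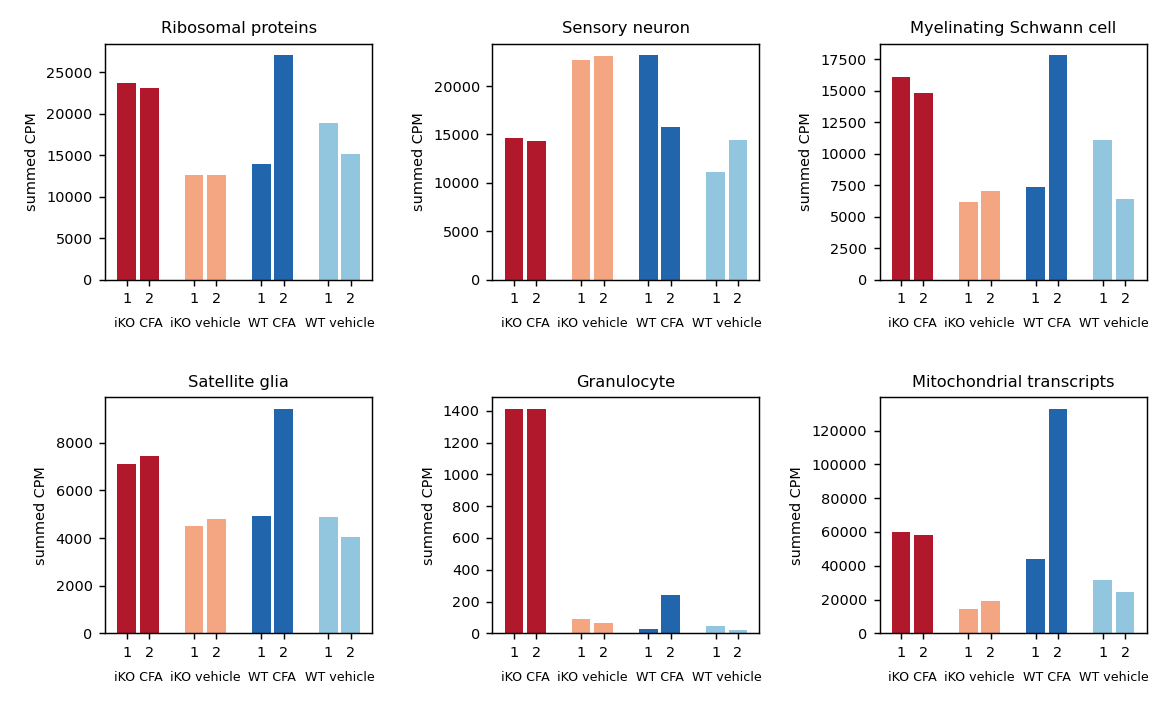
Summed CPM per library of the 85 ribosomal protein genes, of 4 cell type marker lists and of 13 mitochondrial transcripts; each bar is 1 library. The ribosomal bars are tallest in iKO CFA and WT CFA library 2, where the Schwann cell bars are tallest too and the neuronal bars are shorter than in iKO vehicle and WT CFA library 1.

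The comparison of CFA with vehicle within iKO asked how inflammation changed these genes where G9a was deleted in sensory neurons. All but 1 of the 84 genes had a higher estimate with CFA, by a median of 0.83 on the log2 scale or 1.78-fold, while the median of all genes tested was 0.00 and 49.9% of them were above 0. In 80 of 84 genes both iKO CFA libraries lay above both iKO vehicle libraries, which was so for 33.9% of all genes, and the reverse, seen in 35.6% of all genes, held for 0 of 84. With the spread shared by all 8 libraries, however, 0 of 84 passed an adjusted p of 0.05 in edgeR's quasi-likelihood test, against 0.0395% of all genes. An unadjusted p under 0.05 was found for 71 of the 84, and for 5791 of all 20235 genes tested. DESeq2 called 51 of 84 higher, against 9.52% of all genes.

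In edgeR, more genes were called in fits that left out WT CFA libraries, among the 84 and among all genes. The cause of this was not tested. Other fits did not add calls in this way: with a replicate block, or without both WT vehicle libraries, 0 of all genes were called. Leaving out 1 library of any other group did not raise the count over all genes. Rplp0, Rpl22l1 and Rps27l, described below, stayed uncalled in 12 of 17 alternative fits. In a fit of the 4 iKO libraries alone, 78 of 84 genes rose and 0 fell, against 22.0% and 23.4% of all genes. Leaving out WT CFA library 1, library 2 or both, each gave 75 of 84 higher and 0 lower, against 14.5%, 14.3% and 16.2% of all genes higher and 17.6%, 17.7% and 18.7% lower. The calls shared by these 4 fits numbered 75, of which 51 were also made by DESeq2. The genes not called in the fit of iKO libraries included Rpl3l, Rpl6l, Rpl28, Rpl32l and Rps4l, named after their values were seen, of which 4 are paralogs or copies.

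Rplp0, the scaffold of the stalk that recruits translation factors, had the smallest p of the 84. It was at 966 and 988 CPM in iKO CFA and at 454 and 459 CPM in iKO vehicle. The groups did not overlap, the log2 fold change was 1.10 ± 0.28 (SE) and the adjusted p 0.0958, and in the fit of the iKO libraries alone it was 1.12 ± 0.06 with an adjusted p of 5.6e-06. Its stalk partner Rplp1 was at 792 and 824 CPM in iKO CFA and 344 and 352 CPM in iKO vehicle, a log2 fold change of 1.21 ± 0.34. The second partner, Rplp2, differed less, with 189 and 180 CPM in iKO CFA and 111 and 110 CPM in iKO vehicle, a log2 fold change of 0.74 ± 0.24. The 3 stalk genes had a median of 1.10.

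Rpl22l1, a paralog of the large-subunit protein Rpl22, and Rps27l, a paralog of the small-subunit protein Rps27 known as a p53 target, followed next by p, both with an adjusted p of 0.0994. Rpl22l1 was at 80.2 and 85.6 CPM in iKO CFA and 24.9 and 30.2 CPM in iKO vehicle, a log2 fold change of 1.59 ± 0.43. Rpl22 itself was at 233 and 232 CPM in iKO CFA and 116 and 124 CPM in iKO vehicle, a log2 fold change of 0.95 ± 0.31. By these estimates the paralog moved further than its parent: Rpl22l1 reads equalled 34.5% and 37.0% of Rpl22 reads in iKO CFA and 21.4% and 24.5% in iKO vehicle. For Rps27l the parent had the larger estimate. It was at 40.5 and 41.2 CPM in iKO CFA and 24.4 and 22.6 CPM in iKO vehicle, with a log2 fold change of 0.80 ± 0.22, and its reads equalled 24.1% and 26.5% of those of Rps27 in iKO CFA and 34.7% and 33.6% in iKO vehicle. These ratios carry no test.

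The other members with a particular role lay higher with CFA in iKO to different extents. Rpl11 and Rpl5, which carry the 5S ribosomal RNA and bind the p53 regulator Mdm2 when ribosome assembly fails, had log2 fold changes of 1.27 ± 0.37 and 1.06 ± 0.33. Rpl11 was at 446 and 411 CPM in iKO CFA and 177 and 178 CPM in iKO vehicle, and Rpl5 at 411 and 427 CPM in iKO CFA and 201 and 201 CPM in iKO vehicle. Rps6, the small-subunit protein phosphorylated by the S6 kinases, was among the smaller differences: 397 and 367 CPM in iKO CFA against 290 and 284 CPM in iKO vehicle, a log2 fold change of 0.41 ± 0.22 with an adjusted p of 0.252. In the fit of the iKO libraries alone the Rps6 value was 0.44 ± 0.07 and passed (adjusted p = 0.00079). Rpsa, first described as a laminin receptor, was at 668 and 765 CPM in iKO CFA and 389 and 377 CPM in iKO vehicle, a log2 fold change of 0.90 ± 0.32. Rpl41, the shortest ribosomal protein, was at 632 and 521 CPM in iKO CFA and 239 and 246 CPM in iKO vehicle, a log2 fold change of 1.25 ± 0.36.

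Rps27a, made as a fusion with ubiquitin, had the largest estimate of the 84 and differed between libraries of a group. It was at 283 and 372 CPM in iKO CFA, 53.3 and 142 CPM in iKO vehicle, 147 and 559 CPM in WT CFA, and 108 and 163 CPM in WT vehicle. The log2 fold change for CFA in iKO was 1.74 ± 0.62 (adjusted p = 0.123), and the gap between the 2 iKO vehicle libraries alone was 1.41, the widest of any member in that group. Rps14, a small-subunit protein, followed at 1.69 ± 0.47, with 857 and 873 CPM in iKO CFA and 264 and 272 CPM in iKO vehicle. Its iKO libraries agreed closely, yet in WT CFA it was at 357 and 1228 CPM.

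**Figure D3:**
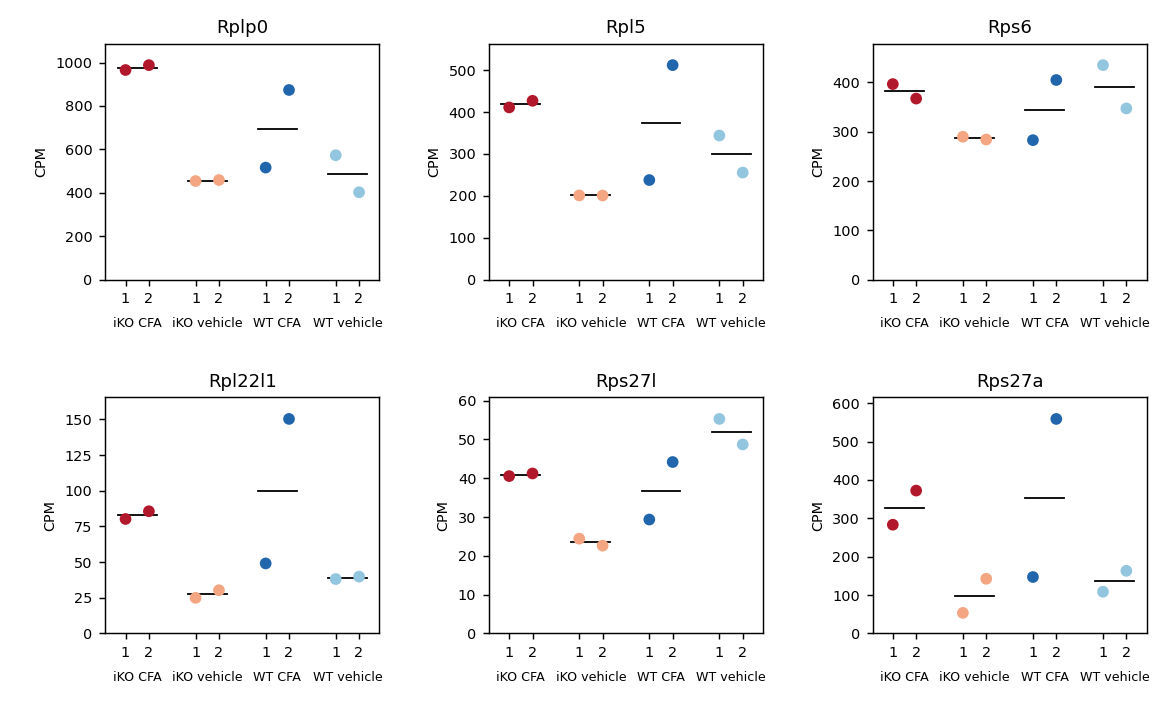
CPM of 6 ribosomal protein genes per library (points), with the mean of each group as a black line. Rplp0, Rpl5 and Rpl22l1 are high in both iKO CFA libraries and low in both iKO vehicle libraries, WT CFA libraries lie far apart, and Rps27a differs between the 2 libraries of every group.

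In the comparison of iKO with WT under vehicle, which set the deletion against its control without inflammation, 74 of 84 genes had a lower estimate in iKO. The median was -0.49 on the log2 scale, or 0.71 times the WT level, against 0.01 for all genes tested, of which 50.7% were above 0. The test called 7 genes lower and 0 higher, against 9.33% and 8.28% of all genes, so the share called lower was near that of all genes. Both iKO vehicle libraries lay below both WT vehicle libraries for 63 of 84 genes, and for 36.5% of all genes. They lay above both for 5 of 84 genes and for 38.9% of all genes. The 7 genes were Rps28, Rps27l, Rps12, Rps16, Rps13, Rps19 and Rpl21. Over 16 alternative fits Rps28, Rps12, Rps19 and Rpl21 each lost the call in 7, Rps16 in 6, Rps13 in 4 and Rps27l in 3.

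Rps28, a small-subunit protein, was at 20.2 and 20.0 CPM in iKO vehicle, against 50.9 and 43.6 CPM in WT vehicle. Its log2 fold change was -1.23 ± 0.36 (adjusted p = 0.0468). Rps27l fell by 1.14 ± 0.22 (log2, adjusted p = 0.0118), with 24.4 and 22.6 CPM in iKO vehicle, against 55.3 and 48.7 CPM in WT vehicle. For both genes the groups did not overlap. Rps12, in the head of the small subunit, was at 74.7 and 65.9 CPM in iKO vehicle, against 172 and 133 CPM in WT vehicle and fell by 1.12 ± 0.29 (adjusted p = 0.0348). Rps16 was at 104 and 105 CPM in iKO vehicle, against 229 and 170 CPM in WT vehicle and fell by 0.93 ± 0.24 (adjusted p = 0.0319). Rps13, Rps19 and Rpl21 fell by 0.89 ± 0.20, 0.86 ± 0.25 and 0.85 ± 0.23, with adjusted p of 0.0221, 0.0492 and 0.0365. Rps19, the protein most often mutated in Diamond-Blackfan anaemia, was at 97.7 and 93.1 CPM in iKO vehicle, against 190 and 156 CPM in WT vehicle.

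The stalk genes had estimates near 0 in this comparison. Rplp1 was at 344 and 352 CPM in iKO vehicle, against 380 and 330 CPM in WT vehicle, and its log2 fold change was -0.03 ± 0.34. Rplp0 had -0.10 ± 0.28 and Rplp2 -0.16 ± 0.23, and in none of the 3 stalk genes did the libraries separate by genotype. Small-subunit genes had a median of -0.65 and large-subunit genes one of -0.46. Rpl41 had -1.14 ± 0.36 (adjusted p = 0.0594), Rpl5 -0.58 ± 0.33, Rpl11 -0.25 ± 0.37, Rps6 -0.45 ± 0.22 and Rpsa -0.23 ± 0.31, and none of these passed.

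This count moved with the libraries that entered. The fit of the 4 vehicle libraries alone, in which 83 of the 84 were tested, gave 52 lower and 2 higher, against 23.2% and 19.7% of all genes. Leaving out both WT CFA libraries gave 59 of 84 lower and 2 higher, against 21.4% and 20.2%. Leaving out WT CFA library 1 or library 2 gave 51 lower and 2 higher each, against 17.9% and 17.6% of all genes lower and 21.4% and 21.2% higher. DESeq2 called 22 lower and 2 higher, against 14.8% and 12.0%. Leaving out 1 library of WT vehicle, iKO vehicle or iKO CFA lowered the count of these genes called. The count called lower over all genes fell in each of those fits too, so the loss was not particular to these genes. Macrophage markers were lower in iKO vehicle with 7 of 8 called, and 8 of 10 lymphocyte and plasma cell markers were called lower, with sums of 21.1 and 17.5 CPM in iKO vehicle against 2133 and 877 CPM in WT vehicle. The part of those cells in the ribosomal difference was not tested.

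In the comparison of CFA with vehicle in WT, 51 of 84 genes had a higher estimate with CFA, a median of 0.12 (log2) against -0.03 for all genes tested, of which 48.6% were above 0. The test called 4 genes higher and 0 lower, against 8.12% and 8.71% of all genes. The 4 were Rps2, Rps18, Rpl15 and Rps4l. Both WT CFA libraries lay above both WT vehicle libraries for 12 of 84 genes (25.3% of all genes) and below both for 8 (30.8%). In the fit of the 4 WT libraries alone 0 were called higher, where 37 of all genes were called higher and 717 lower. Leaving out WT vehicle library 1 or 2 lowered the count called, over all genes too, and without library 2 the median of the 84 was -0.03. DESeq2 called 8 higher and 1 lower, against 11.7% and 13.8% of all genes. The direction for the family as a whole rested on which WT CFA library was used. Without library 1, 41 of 84 genes rose, 0 fell and the median was 0.47, against 15.2% of all genes called higher and 19.4% lower. Without library 2, 33 fell, 4 rose and the median was -0.38, against 13.3% called lower and 16.6% higher.

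Rps2, a small-subunit protein at the mRNA entry side, was at 336 and 628 CPM in WT CFA and 143 and 104 CPM in WT vehicle. It rose by 1.97 ± 0.31 (adjusted p = 0.0065). Rps18, in the head of the small subunit, was at 139 and 276 CPM in WT CFA and 74.5 and 58.0 CPM in WT vehicle, a rise of 1.65 ± 0.31 (adjusted p = 0.0124). In both genes the WT vehicle libraries were also below every iKO library. Rpl15, a large-subunit protein, rose by 1.16 ± 0.29 (adjusted p = 0.0297), with 279 and 542 CPM in WT CFA and 195 and 173 CPM in WT vehicle. Rps4l rose by 1.07 ± 0.21 (adjusted p = 0.0136), with 36.6 and 26.8 CPM in WT CFA and 14.7 and 15.5 CPM in WT vehicle. Rps4x, the X-linked parent of Rps4l, was at 217 and 296 CPM in WT CFA and 381 and 301 CPM in WT vehicle, a log2 fold change of -0.41 ± 0.21 that did not pass.

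The low Rps2 and Rps18 values in WT vehicle stood beside high counts for their pseudogenes, whose sequences are nearly those of the parents. The 6 Rps2 pseudogene rows summed to 13.7 to 27.4 CPM in the iKO libraries, 5.39 and 7.29 CPM in WT CFA, and 171 and 146 CPM in WT vehicle. They made up at most 5.76% of parent and pseudogene reads together in the iKO and WT CFA libraries, against 54.5% and 58.5% in WT vehicle. Parent and pseudogenes summed to 341 and 636 CPM in WT CFA and 314 and 250 CPM in WT vehicle, so that WT CFA library 1 was close to WT vehicle library 1. The 3 Rps18 pseudogene rows summed to 0.534 and 2.22 CPM in WT CFA and 65.1 and 49.0 CPM in WT vehicle. Rps18 and its pseudogenes together were at 139 and 278 CPM in WT CFA and 140 and 107 CPM in WT vehicle, and these groups overlapped. Because the counting of reads that match several places is not given, the Rps2 and Rps18 values in comparisons with WT vehicle are uncertain. Over 16 alternative fits the estimate was 1.45 to 2.34 for Rps2 and 1.07 to 2.05 for Rps18. Rps2 lost its call in 2 of these fits and Rps18 in 3. The calls of Rpl15 and Rps4l with CFA in WT were lost in 7 and 3 of the 16.

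Pseudogene rows of Rps13 differed by genotype. The 3 Rps13 pseudogene rows summed to 30.9 and 28.7 CPM in iKO CFA and 17.9 and 22.0 CPM in iKO vehicle, against 1.20 and 1.68 CPM in WT CFA and 2.45 and 1.34 CPM in WT vehicle. Rps13 itself was at 56.8 and 58.3 CPM in iKO vehicle, against 123 and 90.1 CPM in WT vehicle, and with its pseudogenes at 74.7 and 80.3 CPM in iKO vehicle, against 125 and 91.4 CPM in WT vehicle. The sum was still lower in both iKO vehicle libraries, by less than for Rps13 alone. The 4 Rpl15 pseudogene rows overlapped between genotypes under vehicle. They held 56.4 and 64.2 CPM in iKO CFA, 17.5 and 17.4 CPM in iKO vehicle, 2.62 and 4.07 CPM in WT CFA, and 18.5 and 7.60 CPM in WT vehicle. These rows were at most 14.3% of the Rpl15 total, which was 282 and 546 CPM in WT CFA and 213 and 181 CPM in WT vehicle, so these groups did not overlap. Rpl28 had the reverse balance: its own row held 0.357 to 1.18 CPM in all 8 libraries, while its 2 pseudogene rows held 6.75 to 12.7 CPM, or 86.9% to 97.1% of the total.

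**Figure D4:**
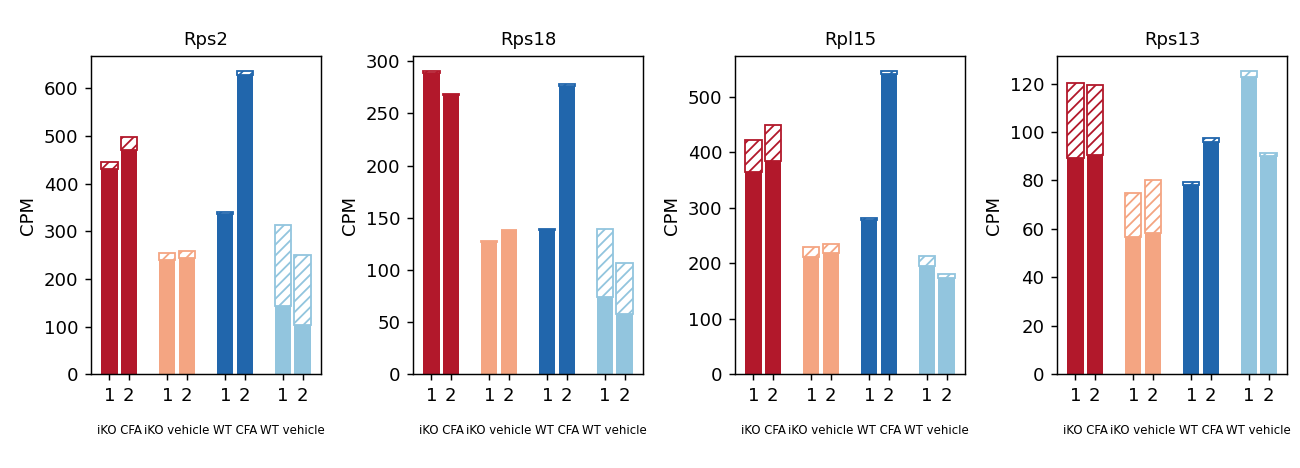
CPM per library of Rps2, Rps18, Rpl15 and Rps13 (filled) with the summed rows of their pseudogenes stacked on top (hatched). The hatched part is 45.8% to 58.5% of the bar for Rps2 and Rps18 in WT vehicle, and 23.95% to 27.4% of the Rps13 bar in iKO libraries against at most 1.96% in WT libraries.

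Under CFA, no ribosomal protein gene passed between iKO and WT. Of the 84 genes, 0 were called in either direction, against 1.5% of all genes called higher and 0.208% lower. An unadjusted p under 0.05 was found for 2 of the 84, and for 2967 of all 20235 genes tested. DESeq2 called 0 higher and 1 lower, against 4.41% and 1.68% of all genes. The median estimate was 0.19 (log2) against -0.02 for all genes, with 74 of 84 above 0 and 47.9% of all genes. Both iKO CFA libraries lay above both WT CFA libraries for 7 of 84 genes (21.6% of all genes) and below both for 1 (16.7%). The smallest p belonged to Rps4l, at 16.4 and 17.5 CPM in iKO CFA and 36.6 and 26.8 CPM in WT CFA, a log2 fold change of -0.90 ± 0.21 (adjusted p = 0.0794). Rps16, in the head of the small subunit, had a log2 fold change of 0.46 ± 0.24 (adjusted p = 0.409). The outcome turned on the WT CFA library used: set against WT CFA library 1 alone, 65 of 84 were called higher and 1 lower with a median of 0.75, and set against library 2 alone, 1 was called lower, 0 higher and the median was -0.17. In all genes the test without library 2 called 11.4% higher and 15.4% lower, and without library 1 2.48% and 0.815%.

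The difference between the CFA responses, iKO minus WT, had an estimate above 0 for 75 of 84 genes and a median of 0.69 (log2), against -0.04 for all genes tested, of which 48.6% were above 0. The test called 2 genes higher and 0 lower, against 6.19% and 3.17% of all genes. They were Rps16 (1.39 ± 0.34, adjusted p = 0.0394) and Rps27l (1.30 ± 0.31, adjusted p = 0.0364). For Rps16, the CFA libraries were above the vehicle libraries in iKO (189 and 178 CPM against 104 and 105 CPM) and below them in WT (107 and 161 CPM against 229 and 170 CPM). Rps27l did likewise, with 40.5 and 41.2 CPM against 24.4 and 22.6 CPM in iKO, and 29.4 and 44.2 CPM against 55.3 and 48.7 CPM in WT. Rpl41 had 1.44 ± 0.51 and Rps28 1.55 ± 0.50, which did not pass, and Rps2 had -1.07 ± 0.42. The median was 0.30 with 15 genes called higher and 4 lower without WT CFA library 1, and 1.23 with 74 higher and 1 lower without library 2. Against these stood 11.0% and 10.4% of all genes without library 1, and 16.9% and 21.3% without library 2. Leaving out any 1 library of the other 3 groups lowered the count called, among these genes and among all genes tested alike. With all 8 libraries, DESeq2 called 14 higher and 1 lower, against 11.5% and 9.33% of all genes. This comparison shares its 8 libraries with those above.

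**Figure D5:**
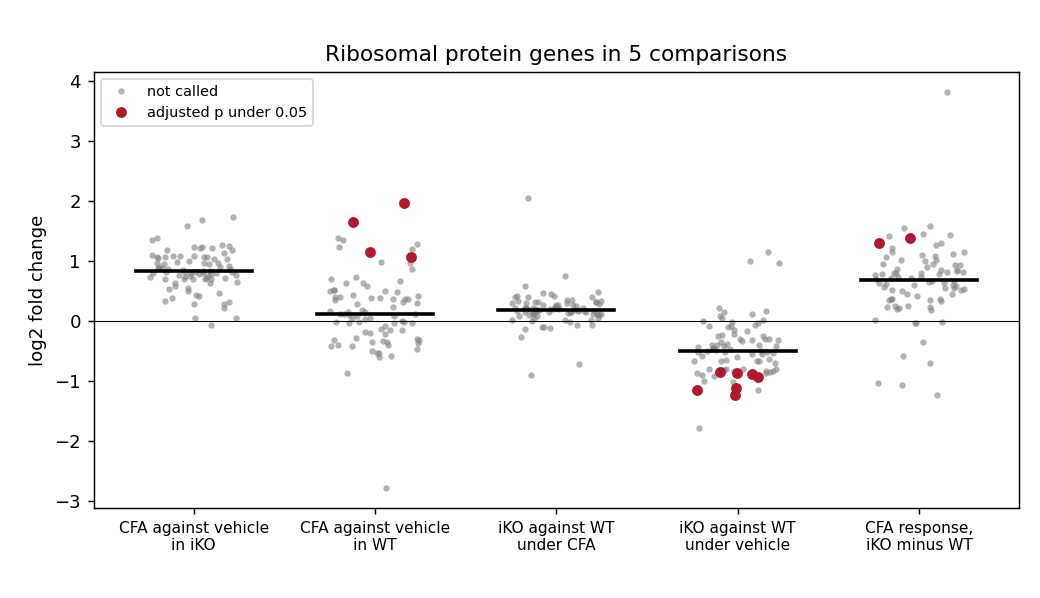
Log2 fold change of each of the 84 genes in 5 comparisons, with medians as black bars; red points passed an adjusted p of 0.05 in the fit of all 8 libraries. The points for CFA in iKO lie around a median of 0.83 with none called, those for iKO against WT under vehicle around -0.49 with 7 called.

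Per kilobase of coding sequence, Rpl41 had the highest mean over the 8 libraries with 6086 CPM per kilobase, followed by Rplp1 with 1610, Rps14 with 1249, Rpl13a with 998 and Rps24 with 792. Coding length leaves out the untranslated ends, which are a large part of so short a mRNA as that of Rpl41. Rpl13a, a large-subunit protein, was at 746 and 742 CPM in iKO CFA and 360 and 364 CPM in iKO vehicle, and Rps24 at 396 and 375 CPM in iKO CFA and 202 and 183 CPM in iKO vehicle. In both genes the groups did not overlap, and neither passed.

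Across genes, the size of the change went weakly with coding length, which was known for 81 of the 85. The 10 genes of at most 300 bases had a median log2 fold change of 1.10 for CFA in iKO and -0.92 for iKO against WT under vehicle, while the 20 genes of 601 to 1200 bases had 0.78 and -0.35. Spearman's rho between length and change over these 81 genes was -0.31 for CFA in iKO, 0.37 for iKO against WT under vehicle, and 0.09 for CFA in WT. The genes share libraries and are not independent. Replicates showed a length relation as well: between the 2 iKO CFA libraries rho was 0.42, and Rpl38 and Rpl39, both short, were at 117 and 72.1 CPM and at 118 and 90.0 CPM in libraries 1 and 2. The share of this in the group differences was not tested. Genes with and without a long run of C and T around the annotated start had close medians. For CFA in iKO the median was 0.82 for the 26 genes with a run of at least 8 bases and 0.89 for the 36 without. For iKO against WT under vehicle the medians were -0.48 and -0.53.

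The remaining paralogs kept their own patterns. Rpl3l, the muscle paralog of Rpl3, was at 0.512 and 1.01 CPM in iKO CFA, 0.564 and 0.172 CPM in iKO vehicle, 0.160 and 0.205 CPM in WT CFA, and 2.48 and 0.0894 CPM in WT vehicle. It was highest in the WT vehicle library that also held skeletal muscle genes. Rpl3 was at 620 and 617 CPM in iKO CFA and 449 and 444 CPM in iKO vehicle, a log2 fold change of 0.47 ± 0.22. Rpl36al, a paralog of Rpl36a, equalled 73.3% and 80.8% of Rpl36a reads in iKO CFA, 80.7% and 85.7% in iKO vehicle, 79.5% and 62.2% in WT CFA, and 43.0% and 53.3% in WT vehicle. Rpl36a was at 79.0 and 70.3 CPM in iKO vehicle, against 161 and 117 CPM in WT vehicle, with a log2 fold change of -0.89 ± 0.35 for iKO against WT that did not pass. Rpl7l1, which takes part in assembling the large subunit, was at 73.9 and 72.7 CPM in iKO CFA, 53.8 and 54.2 CPM in iKO vehicle, 56.3 and 73.1 CPM in WT CFA, and 46.8 and 49.7 CPM in WT vehicle. Rpl10l and Rpl39l, paralogs of Rpl10 and Rpl39, had no row in the count files. Their parents Rpl10 and Rpl39 had log2 fold changes of 0.38 ± 0.19 and 1.23 ± 0.38 for CFA in iKO.

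Among the 4 core ribosomal proteins with other names, all had a higher estimate with CFA in iKO (0 of 4 called) and all a lower one in iKO under vehicle (1 of 4 called). Rps3a1 was the one called, at 287 and 275 CPM in iKO vehicle, against 531 and 380 CPM in WT vehicle. Its log2 fold change was -0.70 (adjusted p = 0.0485), and the difference between its CFA responses was 1.21 (adjusted p = 0.0382). Rack1, a signalling scaffold on the small subunit, was at 428 and 444 CPM in iKO CFA and 193 and 184 CPM in iKO vehicle.

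The 78 mitochondrial ribosomal proteins, which translate the mitochondrial genome, had calls in 3 comparisons, as the cytosolic ones did. With CFA in WT 28 of 78 were called higher and 0 lower with a median of 0.60, against 8.12% and 8.71% of all genes. In iKO against WT under vehicle 9 of 78 were called higher and 0 lower with a median of 0.33, against 8.28% and 9.33% of all genes, so the share called higher was near that of all genes. Mrps12 was among them, with log2 fold changes of 1.22 ± 0.18 for CFA in WT (adjusted p = 0.0062) and 1.02 ± 0.18 for iKO against WT under vehicle (adjusted p = 0.0097). With CFA in iKO 0 were called and the median was 0.28, and under CFA 0 were called between genotypes with a median of -0.01. The difference between responses called Mrps12 lower, at -1.15 ± 0.26 (adjusted p = 0.032).

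Of 25 other mRNAs known to start with a TOP, which share 3 of the core proteins above, 20 had a higher estimate with CFA in iKO (median 0.35, 0 called), where 49.9% of all genes were above 0, and 5 of 25 had a higher one in iKO under vehicle (median -0.20), where 50.7% of all genes were above 0. In iKO against WT under vehicle 4 of 25 were called lower, against 9.33% of all genes, among them the small nucleolar RNA host transcripts Gas5 (-1.94 ± 0.27, adjusted p = 0.0037), Snhg1 (-2.58 ± 0.38, adjusted p = 0.0046) and Snhg5 (-2.42 ± 0.33, adjusted p = 0.0035). Those 3 were also called in the difference between responses, at 2.32 ± 0.37, 2.57 ± 0.52 and 2.56 ± 0.46, and with CFA in WT 2 of 25 fell, Snhg5 and Gas5. They are noncoding, and the WT vehicle libraries were high in nuclear noncoding RNAs generally, with 9 of 9 called lower in iKO under vehicle.

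The lists of genes that build ribosomes or act in translation were counted in the fit of all 8 libraries only. In that fit 8.28% of all genes were called higher and 9.33% lower in iKO under vehicle, 8.12% higher and 8.71% lower with CFA in WT, and 0.0395% higher with CFA in iKO. Of 51 ribosome biogenesis genes, 4 were called higher and 2 lower in iKO under vehicle, among them the large-subunit assembly factor Bop1 (0.71 ± 0.21, adjusted p = 0.0455), and 3 higher and 1 lower with CFA in WT. With CFA in iKO 0 of 51 were called and the median was -0.18. Of 14 measured genes of RNA polymerase I, which transcribes the ribosomal RNA, and its factors, 3 were called lower in iKO under vehicle, namely Taf1d, a subunit of the selectivity factor (-1.58 ± 0.31), the termination factor Ttf1 (-1.19 ± 0.29) and the transcription factor Myc (-0.81 ± 0.24), and 0 of 14 in each of the other 4 comparisons. In the mTORC1 list of 34 genes, 5 were called higher and 1 lower with CFA in WT, and 3 higher and 1 lower in iKO under vehicle. Akt1s1, an inhibitory mTORC1 subunit, was called higher in both (0.89 ± 0.16, adjusted p = 0.0099, and 0.78 ± 0.16, adjusted p = 0.0143). Of 40 initiation factors 6 were called higher and 1 lower with CFA in WT and 3 higher and 2 lower in iKO under vehicle, and of 13 elongation and termination factors 2 higher and 0 lower, and 1 higher and 0 lower. Eef1a2, the elongation factor of neurons and muscle, was that gene (1.18 ± 0.31, adjusted p = 0.0354).

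Of 17 genes of the 5S particle, nucleolar stress and p53 response, Mdm4, an inhibitor of p53, and Cdkn1a, the p53 target that halts the cell cycle, were called lower in iKO under vehicle (-1.81 ± 0.17, adjusted p = 8.0e-04, and -0.89 ± 0.25, adjusted p = 0.0425). Mdm4 was also called lower with CFA in WT, and the difference between responses called Mdm4 and Eda2r higher. Of 18 measured integrated stress response genes, 2 were called higher and 2 lower with CFA in WT, and 1 each way in iKO under vehicle, where Asns, asparagine synthetase, was at 0.84 ± 0.19 (adjusted p = 0.0221). With CFA in iKO, and between genotypes under CFA, 0 genes of the biogenesis, polymerase I, mTORC1, initiation, elongation, p53 and stress lists were called in edgeR, where 0.0395% of all genes were called higher with CFA in iKO and 1.5% between genotypes under CFA.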

How the data were processed

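Total RNA of whole ganglia was sequenced on an Illumina instrument, per the labels' protocols. The deposited values are counts of reads per gene symbol; per the submitters' processing notes the authors used HISAT2 2.2.1, SAMtools 1.19.2, featureCounts 2.0.6 and DESeq2 with GRCm39. The annotation, the strand setting and the counting of reads that match several places are not given in the sources used here, so reads of parents and near-identical pseudogenes could be split. The members and gene lists were chosen with earlier results of these data known.

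Counts were analysed with edgeR 4.0.16 in R 4.3.3. After filterByExpr, 20235 genes with at least 99.9% of reads remained. Library sizes were scaled by TMM, 1 quasi-likelihood model with a mean per group was fitted to all 8 libraries (common dispersion 0.0753), and two-sided p-values were corrected for all 20235 genes (Benjamini-Hochberg), genes under 0.05 being called. Log2 fold changes carry ± SE. Library positions used log2(CPM + 0.5). The named genes were all called members whose libraries separated, or the 3 with the smallest p where none was called, the 5 highest per coding length, members with a special role, and up to 4 genes per list by p; some results these rules name are not reported here. Alternatives were DESeq2 1.42.0, other scalings, no filter, legacy = FALSE, a replicate block, the compared libraries only, and leaving out each library. Coding lengths came from a GENCODE annotation of GRCm38 matched by symbol. The model was also run on simulated counts, for CFA against vehicle in WT only. Those counts held no gap between the WT CFA libraries like the one seen here, so they cannot show how the calls behave with it.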

Additional observations from a re-analysis of the deposited data

Results flagged for a closer look

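The difference between the CFA responses, iKO minus WT, passed the test for 2 ribosomal protein genes, which is why both are listed here. For Rps27l it was 1.30 on the log2 scale, the CFA libraries lying above the vehicle libraries in iKO and below them in WT. For Rps16 it was 1.39, with the same arrangement of libraries. The adjusted p of Rps27l ranged from 1.7e-04 to 0.173 over 14 alternatives and that of Rps16 from 2.6e-04 to 0.182, and each lost its call in 7 of them. For Rps16, 9.25% to 15.7% of the reads of the gene and its pseudogene rows fell on the pseudogenes.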

How the results depend on the processing

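Leaving out single libraries changed the number of all genes called as well as that of these genes. For CFA against vehicle in iKO, DESeq2 called 51 genes higher, against 9.52% of all genes. The compared libraries only gave 78 (22.0% of all genes), and leaving out both WT CFA libraries gave 75 (16.2%). With the replicate block, and without both WT vehicle libraries, 0 of all genes were called. For iKO against WT under vehicle, DESeq2 called 22 lower (14.8% of all genes). The compared libraries only gave 52 lower (23.2%), and leaving out both WT CFA libraries gave 59 (21.4%). With the replicate block 2 were called lower, where 1419 of all genes were. Called higher were 2 genes without the filter, with legacy = FALSE, with DESeq2, with the compared libraries only and without both WT CFA libraries. Over all genes those fits called 1620, 2017, 2389, 3762 and 4038 higher. For CFA in WT, 8 were called higher with DESeq2 and 0 with the compared libraries only, 1 lower with legacy = FALSE and with DESeq2, and leaving out single libraries gave 0 to 41 higher, 0 to 33 lower and a median of -0.38 to 0.47, which was -0.03 without WT vehicle library 2. For iKO against WT under CFA, 1 was called lower with DESeq2, and single libraries left out gave 0 to 65 higher, 0 to 1 lower and a median of -0.17 to 0.75. For the difference between responses, 4 were called higher without the filter, 14 with DESeq2 and 0 with the replicate block, 1 lower with DESeq2, and single libraries left out gave 0 to 74 higher, 0 to 4 lower and a median of 0.30 to 1.23. Replicate numbers did not pair the libraries, with correlations of deviations between -0.14 and 0.03, so the block has no basis in the design. Crossing the numbers in WT, a fit added after seeing the data like those without both WT CFA or WT vehicle libraries, gave 5 higher and 0 lower. Over all genes that fit called 1320 higher and 1590 lower. The other scalings moved no count. The cause of these shifts was not tested. Where a group kept 1 library, that library was assumed to vary like the other groups.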
